A study of Mus musculus with 4 samples.

Results

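The genes described here make ribosomes: 56 genes for ribosome assembly factors and RNA polymerase I (Pol I), taken from a list of gene names by function that was drawn up with earlier results of these data known, out of 41388 genes in each count table. They were measured by RNA-seq in Mnk3, a cultured mouse line that models group 3 innate lymphoid cells (ILC3), lymphocytes of mucosal tissue that secrete IL-22 and IL-17. There were 2 libraries from untreated cells (control 1 and control 2) and 2 from cells exposed for about 16 h to IL-1b plus IL-23, each at 10 ng/ml (stimulated 1 and stimulated 2). The library numbered 1 in each group has rep1 in its title and the other has no number. All libraries came from 1 cell line, with ribosomal RNA removed from total RNA. The labels do not say whether libraries of a group were separate cultures, so a p-value here measures no more than how these libraries vary, and that variation may be technical.

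A ribosome is built in the nucleolus, where Pol I transcribes the long precursor of the ribosomal RNAs. Small nucleolar ribonucleoproteins (snoRNPs) carry guide RNAs that direct chemical modification of this precursor, and the small subunit processome, built around the U3 snoRNP, folds and cleaves the part that becomes the 40S subunit. Other factors assemble the 60S subunit and escort both subunits out of the nucleus. In lymphocytes these genes are known to be raised when cells leave rest and begin to grow.

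Summed counts lay between 23047723 and 29078765 per library, and 13838 genes passed the filter on low counts and were tested. None of 13 ILC3 marker genes was at 0, and their summed level was 5624 and 5734 CPM (counts scaled to library size) in controls and 6668 and 4837 CPM in stimulated cells. These sums joined changes in both directions, since 3 of the 13 rose, 7 fell and 3 did not pass. The cytokine genes Il22 and Il17f together went from 15.2 and 12.9 CPM in controls to 4629 and 2581 CPM in stimulated cells. The other 11 markers summed to 5609 and 5721 CPM in controls and to 2039 and 2257 CPM in stimulated cells. Among them Kit (1123 ± 251 and 278 ± 60.4 CPM) and Il23r (223 ± 5.54 and 109 ± 14.9 CPM) were called lower (edgeR adjusted p = 0.0014 and 0.00304), while Thy1 did not pass (715 ± 62.1 and 663 ± 64.0 CPM). The part of these marker changes in the results below was not tested. Lists of markers of other cells were low: 8 T cell genes summed to 24.4 to 38.3 CPM, and 6 B cell genes to 4.48 to 8.87 CPM. The sum of 9 myeloid genes was 0.961 and 2.22 CPM in controls and 2.65 and 9.67 CPM in stimulated cells. Of these 9 genes, Lyz2, Cd14, S100a8 and S100a9 had a count of 0 in all 4 libraries. Adgre1, a macrophage marker, had 2 and 0 counts in controls and 44 and 187 in stimulated cells (edgeR adjusted p = 0.0161), and made 8.18 of the 9.67 CPM in stimulated 2. The part of the myeloid genes in the results was not tested. CPM here use library sizes scaled by the TMM method, and a level per length is given as RPKM, that CPM per kilobase of listed exon.

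Stimulated cells held more transcript of nearly the whole set. Of the 56 members, all of which passed the filter, 51 rose, 0 fell and 5 did not pass at an adjusted p of 0.05 in edgeR's quasi-likelihood test. Over all tested genes 17.5% were called higher and 18.3% lower. The count of members called lower was also 0 in DESeq2 and in limma-voom, and at an unadjusted p under 0.05 it was 0 in all 3 tools, where no member had a change below zero. The median log2 change of stimulated over control was 1.35 for the members and -0.02 for all tested genes. A log2 change of 1 or more was called for 39 members, against 7.73% of tested genes. In 55 of 56 members both stimulated libraries lay above both controls, as in 34.4% of tested genes, and only Ubtf overlapped. In bulk RNA, more of a transcript per cell and more cells that hold it cannot be told apart.

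Together the 56 transcripts made up 3942 and 3956 CPM in control cells, against 10407 and 9266 CPM in stimulated cells. The means were 3949 ± 9.57 and 9837 ± 807 CPM (SD, n = 2), a ratio of 2.49. Stimulated 1 was the higher stimulated library for 43 members, and for 6851 of the 13838 tested genes. The controls showed no such lean, with control 1 above control 2 for 24 members, and for 6828 of the 13838 tested genes. In level per length the median member had 16.0 RPKM in controls and 38.9 RPKM in stimulated cells. The median member stood at percentile 68.0 of tested genes by RPKM in controls and at percentile 85.1 in stimulated cells.

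**Figure D1:**
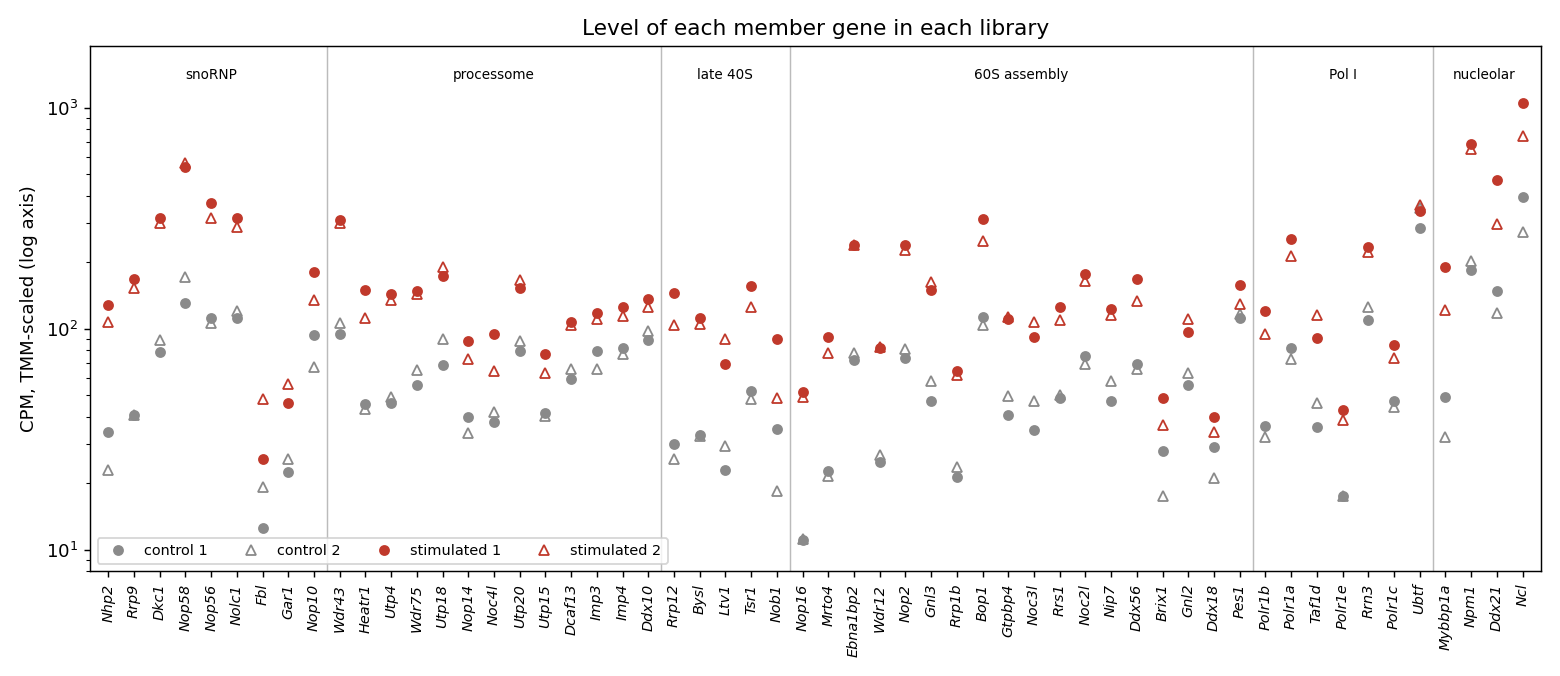
Level of each of the 56 member genes in each of the 4 libraries, in TMM-scaled CPM on a log axis, ordered within 6 groups by fold change. Grey marks are the 2 controls and red marks the 2 stimulated libraries, and red lies above grey for 55 of 56 genes.

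The promoters of members were read from RefSeq (GRCm38.p6), because the genes moved together and the E-box CACGTG is the site bound by MYC with MAX, a factor known to drive ribosome genes. The 3 promoters below belong to the members with the smallest adjusted p among those that hold this motif, which is printed in capitals. Each runs 5′ to 3′ from 250 bases before the start of transcription to 50 bases after it.
Nop2, chr6:125131633-125131932, plus strand: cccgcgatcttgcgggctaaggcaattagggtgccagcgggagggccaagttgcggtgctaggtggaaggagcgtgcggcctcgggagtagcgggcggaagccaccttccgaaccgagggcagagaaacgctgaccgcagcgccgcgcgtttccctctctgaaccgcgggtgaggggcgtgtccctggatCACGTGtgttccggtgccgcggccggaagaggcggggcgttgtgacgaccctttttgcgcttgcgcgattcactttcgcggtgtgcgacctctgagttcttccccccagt
Utp4, chr8:106893390-106893689, plus strand: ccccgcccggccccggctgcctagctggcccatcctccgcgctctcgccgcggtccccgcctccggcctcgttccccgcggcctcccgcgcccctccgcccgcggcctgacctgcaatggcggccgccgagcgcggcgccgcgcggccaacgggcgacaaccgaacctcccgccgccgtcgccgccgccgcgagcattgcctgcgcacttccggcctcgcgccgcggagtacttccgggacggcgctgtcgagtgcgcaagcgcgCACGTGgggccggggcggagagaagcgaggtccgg
Wdr43, chr17:71615965-71616264, plus strand: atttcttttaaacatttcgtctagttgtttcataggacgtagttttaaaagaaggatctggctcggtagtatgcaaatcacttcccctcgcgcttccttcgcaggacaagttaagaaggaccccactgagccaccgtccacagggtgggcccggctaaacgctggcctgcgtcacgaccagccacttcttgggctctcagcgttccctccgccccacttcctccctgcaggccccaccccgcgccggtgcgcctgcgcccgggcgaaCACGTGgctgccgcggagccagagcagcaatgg
The motif begins 60 bases before the start in Nop2, and at base 16 after it in Utp4 and base 18 in Wdr43.

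RefSeq promoter windows were matched for 49 members, with 58 windows in all. Ubtf, Wdr12, Noc2l and Rrp1b had multiple windows each, some of which overlap, while the interval below treats all windows as independent. CACGTG, which reads the same on both strands, was in 11 of the 58 windows, or 19.0% (95% Wilson interval 10.9% to 30.9%, counting error only), and in 7.15% of all 32851 windows. The 11 windows belong to Imp4, Ltv1, Mybbp1a, Nop2, Pes1, Rrn3, Tsr1, Utp18, Utp20, Utp4 and Wdr43, of which 10 rose and Pes1 did not pass. Of the 12 sites in these windows, 7 began after the start of transcription and 5 before it. In the 250 bases before the start alone, the share was 6.90% for members and 6.02% for all windows. GGCGGG or CCCGCC was also in a larger share of member windows than of all windows (65.5% and 35.3%). The part of base composition in the shares of CACGTG was not tested. Myc, which was looked at after the member values were known, had 603 and 370 counts in controls and 1267 and 1088 in stimulated cells. Its log2 change was 1.58 ± 0.23 (edgeR adjusted p = 0.00311), and its part in the values of the members was not tested.

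The snoRNP genes rose in 8 of 9 cases, with a median log2 change of 1.65. Proteins of the box C/D particles, which methylate ribose in ribosomal RNA, include the scaffold pair Nop56 and Nop58 and the methyltransferase fibrillarin (Fbl). Nop58 had 3941 and 5027 counts before stimulation and 13573 and 12786 after it. This was a log2 change of 1.86 ± 0.18 (SE, edgeR adjusted p = 0.000728). Nop56 changed by 1.65 ± 0.15, from a mean of 109 ± 4.23 to 342 ± 37.2 CPM. Fbl counts were 378 and 562 in controls and 649 and 1093 in stimulated cells. Both stimulated libraries lay above both controls, but stimulated 2 had 47.8 CPM and stimulated 1 had 25.7 CPM, and the change of 1.21 ± 0.36 did not pass (edgeR adjusted p = 0.0512). The change of Fbl rested on which library was used. It was 1.59 without stimulated 1, 0.72 without stimulated 2, 0.93 without control 1 and 1.55 without control 2. Fbl passed in DESeq2 (adjusted p = 0.00141), and in edgeR without robust estimation (0.0358) or with a replicate block. That block assumes a pairing that the labels do not state, and its SE for Fbl was 0.13 in place of 0.36. Fbl also passed in edgeR with DESeq2 size factors (0.0467), the 1 CPM filter (0.0474) and no filter beyond 1 count (4.3e-09). It did not pass in limma-voom or with upper quartile or total count scaling.

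The H/ACA particles turn uridine into pseudouridine and also form part of telomerase. Their catalytic subunit dyskerin is encoded by Dkc1 (ENSMUSG00000031403, chrX:75095854-75109777 in the count tables), which had 2366 and 2614 counts in controls and 8008 and 6898 in stimulated cells. The change was 1.88 ± 0.15 (edgeR adjusted p = 0.000393). Nhp2, an RNA-binding subunit, had 1022 and 673 counts in controls and 3220 and 2457 in stimulated cells, the steepest change of the snoRNP group at 2.05 ± 0.22. Nop10, the smallest subunit, began from a high level per length of 72.6 ± 17.0 RPKM. It was counted 2829 and 1969 times in controls, then 4557 and 3071 in stimulated cells, a change of 0.97 ± 0.22. Gar1, the fourth subunit, changed by 1.09 ± 0.17. So all members of this 4-protein core rose, by folds of 1.95 to 4.13.

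Rrp9, a protein found in the U3 snoRNP, had nearly equal control counts of 1229 and 1194 and reached 4237 and 3495 in stimulated cells. Its change was 1.98 ± 0.14 (edgeR adjusted p = 0.000272). Nolc1, a nucleolar chaperone that travels with snoRNPs and binds Pol I, changed by 1.38 ± 0.14. For all 9 genes both stimulated libraries lay above both controls, as in 34.4% of tested genes.

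All 13 genes of the processome rose, with log2 changes of 0.48 to 1.60, and 6 of them rose by 2-fold or more. The first complex to bind the precursor is UTP-A, whose members here are Utp4, Utp15, Heatr1, Wdr43 and Wdr75. Wdr43 had 2863 and 3117 counts in controls and 7875 and 6843 in stimulated cells (1.60 ± 0.14, edgeR adjusted p = 0.000591). Utp4 had 1383 and 1435 counts in controls and 3621 and 3084 in stimulated cells (1.55 ± 0.13). The promoters of both are printed above. Heatr1 had 1378 and 1262 counts in controls, and 3769 and 2549 in stimulated cells (1.55 ± 0.18). Wdr75 had 1673 and 1908 in controls and 3725 and 3262 in stimulated cells (1.27 ± 0.14). These 4 genes rose by 2.41-fold to 3.03-fold, while Utp15 changed by 0.78 ± 0.15, and without stimulated 1 by 0.63, where it no longer passed (edgeR adjusted p = 0.0554).

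The other processome genes ranged from 0.48 to 1.19. Utp18, of the UTP-B complex, changed by 1.19 ± 0.17 and Nop14 by 1.13 ± 0.16. Noc4l, the partner of Nop14, went from 39.7 ± 2.93 to 79.3 ± 20.8 CPM, and Utp20 changed by 0.93 ± 0.14 and Dcaf13 by 0.75 ± 0.13. Imp3 and Imp4 bind U3 RNA to the precursor. Imp3 had the highest control level per length of all members, 78.6 ± 10.5 RPKM, with 2398 and 1926 counts in controls and 2974 and 2515 in stimulated cells. Its change of 0.65 ± 0.15 did not pass without control 2 (edgeR adjusted p = 0.073) or without stimulated 1 (0.0639). Imp4 changed by 0.59 ± 0.13 and likewise did not pass without control 2 (0.0615) or stimulated 1 (0.0824). Ddx10, a helicase that releases a snoRNA from the precursor, had the smallest call at 0.48 ± 0.13 (edgeR adjusted p = 0.0311). The call of Ddx10 ended without control 1 (0.144), control 2 (0.059), stimulated 1 (0.147) or stimulated 2 (0.0565), and with total count scaling (0.0519).

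Factors of the late 40S precursor, which ready the small subunit for export and the last cut of its RNA, rose in 4 of 5 cases. Rrp12, an export factor, had 909 and 755 counts in controls and 3680 and 2372 in stimulated cells. Its change of 2.16 ± 0.20 is a fold of 4.46 (edgeR adjusted p = 0.000728). Bysl, which encodes bystin, went from 991 and 954 counts to 2835 and 2389 (1.73 ± 0.14). Ltv1, a factor that leaves before translation starts, had 689 and 860 counts in controls and 1756 and 2043 in stimulated cells (1.61 ± 0.20). Tsr1, a GTPase-like protein that blocks early binding of translation factors, had 1572 and 1403 counts in controls and 3944 and 2869 in stimulated cells (1.49 ± 0.16). Of the exon bases of Tsr1, 32.3% lie under exons of Srr, and the sources used here do not give how strand was counted. Nob1, the nuclease of the last cut, had 1057 and 537 counts in controls and 2280 and 1108 in stimulated cells. Library 1 was above library 2 in each group, and the change of 1.38 ± 0.45 did not pass (edgeR adjusted p = 0.0773). The change was 1.78 without stimulated 2, 0.86 without stimulated 1, 1.92 without control 1 and 0.98 without control 2. Nob1 passed in DESeq2 (adjusted p = 0.000722), and in edgeR without robust estimation (0.0374) or with a replicate block, where its SE was 0.11 in place of 0.45. It did not pass in limma-voom or with other scalings or filters.

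**Figure D2:**
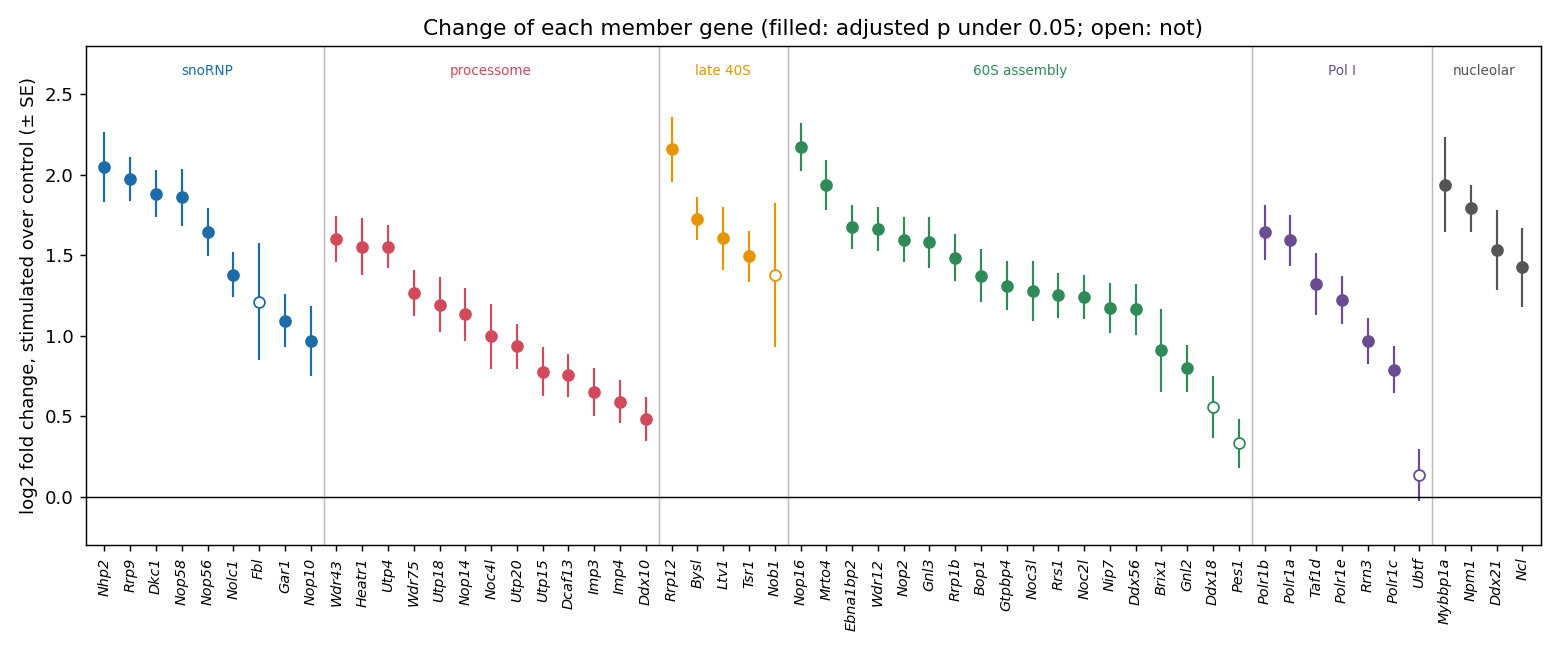
Log2 fold change of stimulated over control for each member gene, with its SE from the edgeR fit of 4 libraries, by group. Filled points passed an adjusted p of 0.05 and open points (Fbl, Nob1, Ddx18, Pes1 and Ubtf) did not, and no point lies below 0.

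Of 18 genes for 60S assembly, 16 rose, with a median log2 change of 1.29. Nop16 (ENSMUSG00000025869, chr13:54584185-54590090), a nucleolar 60S factor, had the steepest change of all 56 members. It had 335 and 329 counts in controls and 1301 and 1127 in stimulated cells, a change of 2.17 ± 0.15 and a fold of 4.51 (edgeR adjusted p = 0.000271). Mrto4, which holds the place of the ribosomal stalk protein, went from 687 and 629 counts to 2319 and 1776 (1.94 ± 0.15). Ebna1bp2 had 2182 and 2261 counts in controls and 6065 and 5440 in stimulated cells (1.68 ± 0.13). Nop2, a methyltransferase that acts on the large ribosomal RNA, had 2216 and 2363 counts in controls and 6044 and 5196 in stimulated cells (1.60 ± 0.14). For all 18 genes both stimulated libraries were above both controls, as in 34.4% of tested genes.

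Pes1, Bop1 and Wdr12 form the PeBoW complex, which is needed to process the RNA of the large subunit. Bop1 had 3402 and 3048 counts in controls and 7932 and 5667 in stimulated cells (1.37 ± 0.17). Wdr12 had 750 and 788 counts in controls and 2062 and 1883 in stimulated cells (1.66 ± 0.14). Pes1 had 3371 and 3416 counts in controls and 3998 and 2952 in stimulated cells. Its change of 0.33 ± 0.15 did not pass (edgeR adjusted p = 0.131), and whether it differs from those of its partners was not tested. Among the alternatives, Pes1 passed only with a replicate block (edgeR adjusted p = 0.00993). Of the 50-base stretches of Pes1 transcripts, 20.4% also occur in transcripts of other genes, against 0% for Bop1 and 5.81% for Wdr12. The part of such shared sequence in these counts was not tested.

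The other 60S genes included nucleolar GTPases, helicases and the Noc proteins. Among GTPases, Gnl3, which encodes nucleostemin, changed by 1.58 ± 0.16, Gtpbp4 by 1.31 ± 0.15 and Gnl2 by 0.80 ± 0.15. Noc3l and Noc2l, which bind each other on the precursor, changed by 1.28 ± 0.19 and 1.24 ± 0.14. Rrp1b changed by 1.49 ± 0.14, Rrs1 by 1.25 ± 0.14, Nip7 by 1.17 ± 0.15 and the helicase Ddx56 by 1.16 ± 0.16. Brix1 changed by 0.91 ± 0.26 (edgeR adjusted p = 0.0351). The call of Brix1 ended without control 2 (0.0733) or stimulated 1 (0.13), and with upper quartile (0.0508) or total count scaling (0.0602). Ddx18, also a helicase, had 877 and 619 counts in controls and 1004 and 781 in stimulated cells, and 0.56 ± 0.20 did not pass (edgeR adjusted p = 0.0643). Its change was 0.80 without control 1, 0.34 without control 2, 0.44 without stimulated 1 and 0.69 without stimulated 2. Ddx18 passed in DESeq2 (adjusted p = 0.0497), and in edgeR with no filter beyond 1 count (0.00756) or with a replicate block (3.2e-06). It did not pass in limma-voom, without robust estimation, with the 1 CPM filter or with other scalings. Of Ddx18, 55.9% of 50-base stretches occur in transcripts of other genes, and the part of this in its counts was not tested.

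**Figure D3:**
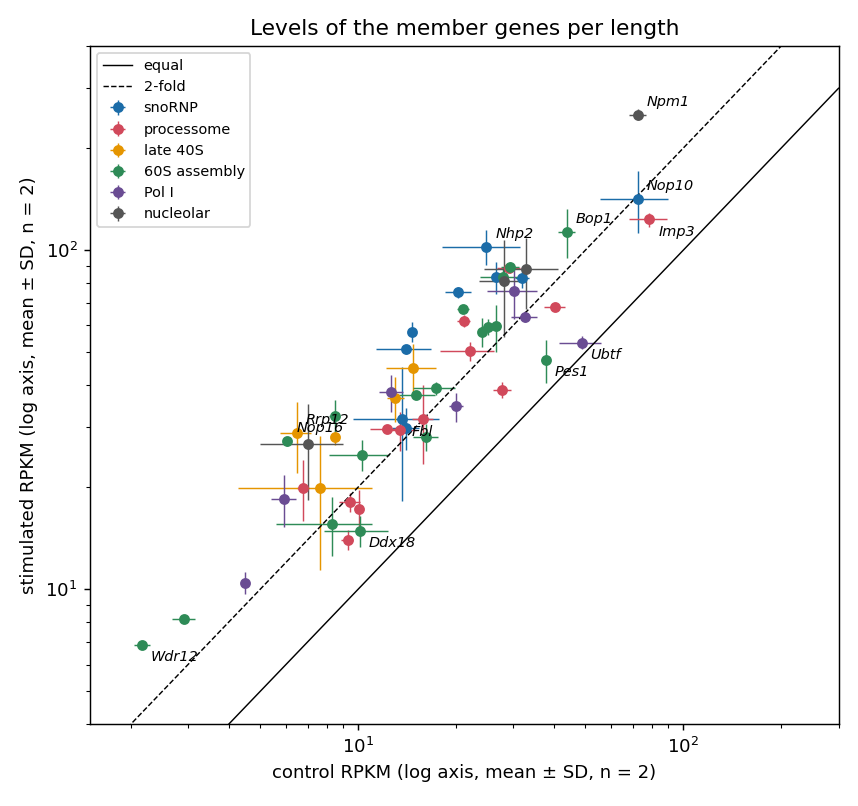
RPKM of each member gene in stimulated against control cells on log axes, mean ± SD over 2 libraries per group, coloured by group. Most points lie near or above the dashed 2-fold line, while Ubtf (48.6 and 53.4 RPKM) and Pes1 (37.8 and 47.5 RPKM) lie close to the line of equal levels.

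Of the 7 Pol I genes, 6 rose. The 2 largest subunits moved by like amounts. Polr1a (ENSMUSG00000049553, chr6:71909053-71979356), which encodes the catalytic subunit, had 2471 and 2130 counts in controls and 6411 and 4857 in stimulated cells (1.59 ± 0.16, edgeR adjusted p = 0.000769). Polr1b, the second subunit, had 1099 and 946 counts in controls and 3043 and 2152 in stimulated cells (1.64 ± 0.17). Polr1e, a subunit of Pol I alone, had 526 and 511 counts in controls and 1083 and 882 in stimulated cells (1.22 ± 0.15). Polr1c, which Pol I shares with Pol III, had 1421 and 1292 counts in controls and 2132 and 1677 in stimulated cells (0.79 ± 0.14).

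The member genes for factors that place Pol I on its promoter had log2 changes from 0.14 (Ubtf) to 1.32 (Taf1d). Rrn3, which encodes TIF-IA and joins the polymerase to the promoter complex, had 3292 and 3650 counts in controls and 5939 and 5094 in stimulated cells (0.97 ± 0.14). Taf1d, a subunit of the promoter factor SL1, had 1087 and 1356 counts in controls and 2287 and 2637 in stimulated cells (1.32 ± 0.19). The SL1 subunit genes Taf1a (0.51 ± 0.23), Taf1b (0.04 ± 0.14) and Taf1c (0.02 ± 0.14) are no members and did not pass. Their edgeR adjusted p was 0.137, 0.865 and 0.91, and they were named after their values were seen. Ubtf, the upstream binding factor that coats ribosomal DNA (ENSMUSG00000020923, chr11:102304560-102319742), had 8596 and 10324 counts in controls and 8573 and 8248 in stimulated cells. Scaled for library size these were 319 ± 47.6 and 350 ± 15.3 CPM (SD, n = 2), and the change of 0.14 ± 0.16 did not pass (edgeR adjusted p = 0.548). Ubtf ranked 4 of 56 by control RPKM and 23 of 56 in stimulated cells. Without control 1 its change was -0.01. The precursor RNA that Pol I makes was not examined here, and the libraries were made after removal of ribosomal RNA.

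The 4 genes of nucleolar proteins with several roles all rose. Ncl, which encodes nucleolin, had the highest count of any member in 3 of the 4 libraries, control 2 being the exception (where Ubtf was higher), with 11909 and 7995 counts in controls and 26437 and 17067 in stimulated cells (1.42 ± 0.25, edgeR adjusted p = 0.00608). Npm1 (nucleophosmin) had 5573 and 5912 counts in controls and 17337 and 14892 in stimulated cells (1.79 ± 0.15). Per length it was the most abundant member after stimulation, at 251 ± 9.15 RPKM against 72.5 ± 4.51 RPKM in controls, although 24.3% of its 50-base stretches occur in other transcripts. Ddx21, a helicase that links Pol I to rRNA processing, had 4470 and 3455 counts in controls and 11926 and 6815 in stimulated cells (1.53 ± 0.25). Mybbp1a had 1472 and 948 counts in controls and 4799 and 2766 in stimulated cells (1.94 ± 0.30). For each of the 4, stimulated 1 was the higher stimulated library.

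Other genes of the pathway, 115 that are no members, were called higher less uniformly: 75 rose, 2 fell and 38 did not pass, with a median log2 change of 0.72. The members and these genes were both listed with results of these data known, so their counts are given as a description. Of 39 other 40S genes 29 rose and 0 fell, and of 42 other 60S genes 29 rose and 0 fell. Those with the smallest adjusted p were Pno1 (1.61 ± 0.15), Nat10 (1.34 ± 0.15) and Wdr46 (1.29 ± 0.14) for the 40S subunit, and Ppan (1.83 ± 0.16), Nle1 (1.71 ± 0.16) and Ftsj3 (1.57 ± 0.14) for the 60S subunit.

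Among 14 other Pol I genes 8 rose and 1 fell, with the smallest adjusted p for Polr1d (1.09 ± 0.13), Cd3eap (1.23 ± 0.15) and Polr2h (1.27 ± 0.16). Several of the 14 are not genes of Pol I alone. Polr1d is shared with Pol III, and Polr2e, Polr2f, Polr2h, Polr2k and Polr2l with both Pol II and Pol III. All of these shared subunits were called higher except Polr2l, which did not pass. The gene that fell, named after its value was seen, was Ttf1, which encodes the factor that ends Pol I transcripts. It had 1704 and 1955 counts in controls and 997 and 1015 in stimulated cells (-0.56 ± 0.15, edgeR adjusted p = 0.0304). This call ended without control 2 (0.135), stimulated 1 (0.159) or stimulated 2 (0.0688). Of 20 genes of Pol III, which makes 5S ribosomal RNA and transfer RNA, 9 rose, 1 fell and 10 did not pass. Polr3d (1.56 ± 0.14), Gtf3c6 (1.42 ± 0.16) and Polr3e (1.01 ± 0.14) had the smallest adjusted p among them. The gene that fell was Maf1, the repressor of Pol III, also named after its value was seen. Maf1 had 9518 and 8950 counts in controls and 4734 and 3697 in stimulated cells (-0.83 ± 0.15, edgeR adjusted p = 0.00567).

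**Figure D4:**
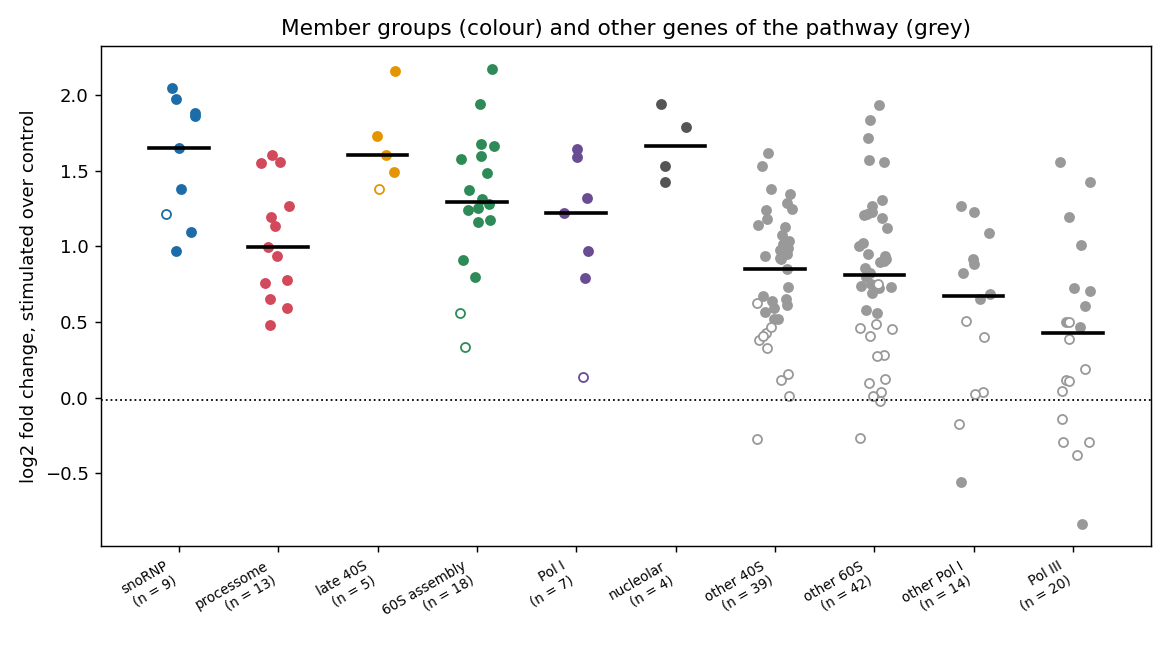
Log2 fold change of stimulated over control for the genes of each member group (colour) and each list of other pathway genes (grey), with a bar at the median. Filled points passed an adjusted p of 0.05, and the dotted line marks the median of all tested genes, -0.02.

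Several members carry snoRNA genes inside their own span, which are freed from the spliced introns and guide the particles described above. By the annotation, 21 snoRNA genes lay inside 7 members on the same strand, in Nop56, Nop58, Dkc1, Wdr43, Tsr1, Gnl3 and Ncl. No count exceeded 76 in a library, and whether these reads came from freed snoRNAs or from introns of host transcripts was not tested. Of the 21 genes, 8 passed the filter. Of these 8, 5 rose, 1 fell and 2 did not pass. The following 3 are shown because their hosts all rose while the snoRNA counts moved in both directions. Capitals mark the last CTGA, the letters of box D, which 79.5% of 1507 annotated snoRNA transcripts contain on the strand shown, the only strand searched.
Snord19, inside Gnl3, chr14:31016206-31016281, minus strand: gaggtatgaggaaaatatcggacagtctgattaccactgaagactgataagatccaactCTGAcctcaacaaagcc
Snord69, inside Gnl3, chr14:31014287-31014366, minus strand: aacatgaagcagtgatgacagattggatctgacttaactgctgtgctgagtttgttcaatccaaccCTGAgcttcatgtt
Snord91a, inside Tsr1, chr11:74905424-74905516, plus strand: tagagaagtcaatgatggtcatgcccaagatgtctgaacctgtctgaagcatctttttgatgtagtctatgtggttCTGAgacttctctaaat

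Snord19 had 13 and 12 counts in controls and 36 and 48 in stimulated cells, a log2 change of 2.05 ± 0.39 (edgeR adjusted p = 0.0078). Snord91a went the other way from its host Tsr1, with 76 and 60 counts in controls and 9 and 18 in stimulated cells (-2.00 ± 0.43, edgeR adjusted p = 0.0121). Its neighbour in Tsr1, Gm22771, had 32 and 23 counts in controls and 9 and 17 in stimulated cells and did not pass (-0.76 ± 0.48). Groups did not overlap for any of these 3 genes, as for most tested genes (34.4% with stimulated above and 36.3% with stimulated below). The calls of Snord19 and Snord91a held in each fit with 1 library left out.

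The remaining calls did not hold in each fit with 1 library left out, and those of Snord110, Snord53 and Snord11 rested on fewer counts. Snord69 had 19 and 18 counts in controls and 43 and 38 in stimulated cells (1.43 ± 0.33, edgeR adjusted p = 0.0168). For Snord69 the adjusted p was above 0.05 without control 1 (0.0625), control 2 (0.0669) or stimulated 1 (0.0606), and in DESeq2 (0.0505). Snord110, in Nop56, rose from 3 and 2 counts to 14 and 15 (2.78 ± 0.59), a call that ended without control 2 (0.0663) or stimulated 2 (0.053). Snord53, in Wdr43, rose from 4 and 2 counts to 14 and 15 (2.53 ± 0.59), a call that ended without control 2 (0.0977) or stimulated 2 (0.0697) and in DESeq2 (0.068). Snord11, in Nop58, rose from 5 and 3 counts to 12 and 12 (1.86 ± 0.57), a call that ended without control 1 (0.122), control 2 (0.223), stimulated 1 (0.134) or stimulated 2 (0.155). It also ended in DESeq2 (0.207) and with total count scaling (0.0544).

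**Figure D5:**
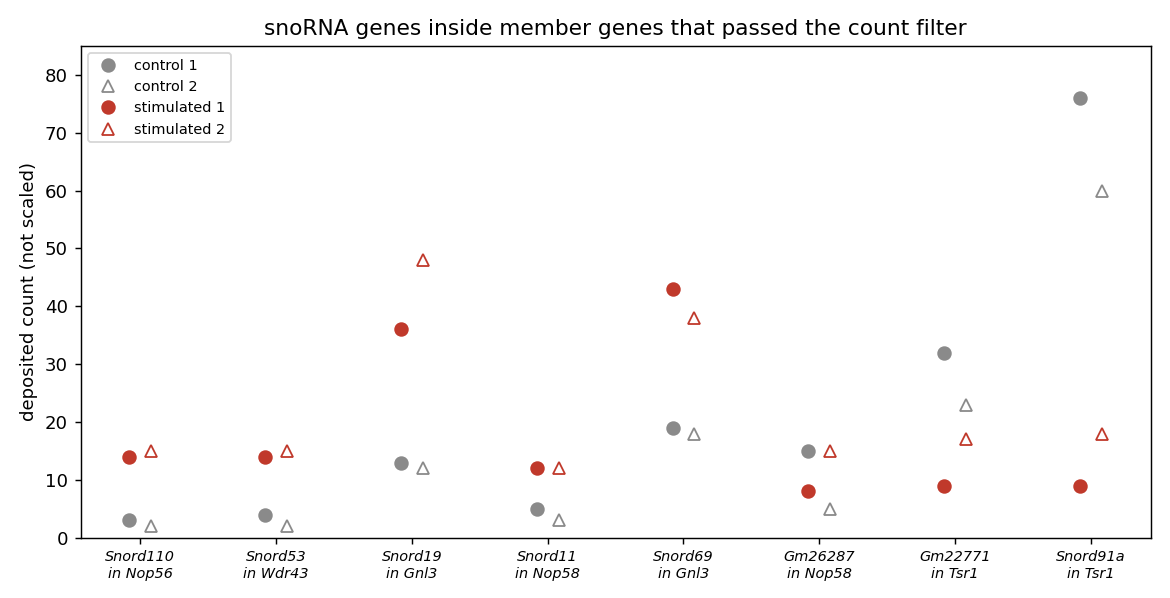
Deposited counts, not scaled, of the 8 tested snoRNA genes that lie inside member genes, in each of the 4 libraries, ordered by fold change from highest to lowest. Snord91a and Gm22771 in Tsr1 lie lower in both stimulated libraries (red) than in both controls (grey), and the 5 leftmost lie higher.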

How the data were processed

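RNA-seq counts of 4 libraries were used. The labels' protocols name a Qiagen kit for RNA and removal of ribosomal RNA. The submitters' processing notes name STAR, Subread and featureCounts; the sources used here do not give versions, build, annotation or use of strand. Each deposited count is a raw whole number per gene, as the values show. The CPM and RPKM deposited by the authors were checked to follow from count, total and listed length, and were not used further.

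Identifiers were matched to GENCODE M21 symbols (40254 of 41388). Stimulated and control libraries were compared by edgeR 4.0.16 (R 4.3.3) with filterByExpr, TMM, robust quasi-likelihood fits and treatment as the only term, adjusted by Benjamini-Hochberg over 13838 genes, and the fit was tested on simulated data. The SE is the change over the square root of F. The common biological coefficient of variation was 18.4%. Alternatives were other scalings, filters, DESeq2 1.42.0, limma-voom (3.58.1), no robust estimation, a replicate block, an adjusted p of 0.01 and each library left out. Where a library was left out, the lone sample is assumed to vary like the other group. Members, lists and the rule for printed counts (per group, the 4 steepest calls, the 2 highest RPKM, every lower call, and all Pol I genes) were chosen with earlier results of these data known. Members that did not pass were named after their values were seen. The value of 1 marker gene is not reported here.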

Additional observations from a re-analysis of the deposited data

How the results depend on the processing

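Between 49 and 54 members were called higher under other scalings, filters and tools (45 at an adjusted p of 0.01), 0 were called lower, and 46 kept their call in every alternative at 0.05. Total count scaling lowered the median of all genes from -0.02 to -0.11 and that of the members to 1.25. With 1 library left out, 47 to 51 members were called higher, their median was 1.28 to 1.42, and the change of Ubtf ranged from -0.012 (without control 1) to 0.30 (without control 2). Leave-one-out fits called 1 to 2 other pathway genes lower and 2 to 3 snoRNA genes higher. At an adjusted p of 0.01, 1 other pathway gene was lower, 1 snoRNA gene was higher and 0 were lower. DESeq2 and the 1 CPM filter each called 2 snoRNA genes higher. The share of member windows with CACGTG was 6.90% when bases after the start were left out.

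The titles share only the word rep1, which states no pairing. Deviations of control 1 and stimulated 1 from their group means correlated across 13838 genes (r = 0.49). With a replicate block, 55 members were called higher and 0 lower, 90 other pathway genes higher and 7 lower, and 3986 of all genes higher. The SEs in that fit were 0.13 (Fbl), 0.11 (Nob1), 0.12 (Pes1) and 0.12 (Ddx18). In the main fit they were 0.36, 0.45, 0.15 and 0.20. With SEs so alike, the p-values of the block fit say little of how each gene varied between libraries.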

Other observations

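Of the 21 snoRNA genes inside members, 6 had a count of 0 in all 4 libraries, among them Snord57 in Nop56 and Snora75 in Ncl. All 6 lie under an annotated exon of their host, so these rows do not show that the snoRNAs were absent. Exons of 19 members overlap exons of another listed gene, and over 10% of exon bases are shared for Tsr1 and Noc2l (20.9%). Over 10% of 50-base stretches occur in transcripts of other genes for 6 members, namely Ddx18, Npm1, Pes1, Fbl (19.0%), Nop56 (18.7%) and Mrto4. Of these 6, Npm1, Nop56 and Mrto4 rose and the other 3 did not pass.

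The GC box GGCGGG or its reverse CCCGCC was in 65.5% of the 58 member promoter windows and in 35.3% of all windows. The E-box variant CATGTG or its reverse CACATG was in 19.0% and 14.2%.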
